A study of Mus musculus with 6 samples.

Results

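Glutathione, thioredoxin and other antioxidant genes were compared between adipocytes labelled as lacking LATS1 and LATS2, the kinases at the core of the Hippo pathway, and their controls. The set was chosen by a rule on gene symbols that used no measured value, though earlier results of these data were known. It took in the glutathione S-transferases, microsomal transferases, glutathione peroxidases, peroxiredoxins, thioredoxins and their reductases, superoxide dismutases and catalase. It also took in the genes of glutathione synthesis and recycling with the cystine importer, and a small group of NRF2 regulators and targets. It held 58 of the 37384 gene symbols in the count table. RNA came from floated adipocytes of inguinal subcutaneous white adipose tissue (scWAT) of male mice at postnatal day 7 (P7). L1L2-FF mice, Lats1f/fLats2f/f, carried the floxed alleles without Cre. L1L2-AKO mice, Lats1f/fLats2f/fAdipoqCre, carried the same alleles with Cre recombinase driven by the promoter of the adipocyte gene *Adipoq*, so that the floxed alleles were shared by all mice and other cell types in the fraction were not the intended target of Cre. Each genotype had 3 libraries, and each library was a pool of 4 mice, so the spread given here is the spread between pools and not between single mice.

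Glutathione is a small thiol made from cysteine, glutamate and glycine. Glutathione S-transferases attach it to reactive compounds such as lipid aldehydes, glutathione peroxidases use it to reduce peroxides, and glutathione reductase restores it with NADPH. Thioredoxins and their reductases form a parallel thiol chain that feeds most peroxiredoxins. Superoxide dismutases turn superoxide into hydrogen peroxide, which catalase splits in peroxisomes, the organelles that also shorten very long fatty acids in fat cells. NRF2, encoded by *Nfe2l2* and held in check by KEAP1, is the transcription factor best known for switching on many of these genes under oxidative or electrophilic stress.

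Total counts were between 30548473 and 32107917 per library. Levels are given as CPM, counts per 1000000 counts of a library, scaled by TMM factors. Where genes are compared with each other, CPM per kb of exon is used. The length is the union of all annotated exons of a gene, so ranks and shares between genes depend on that choice. Genotypes were compared by the quasi-likelihood test of edgeR, and p was adjusted over the 15674 genes tested (Benjamini-Hochberg, threshold 0.05). A difference described as higher, lower, risen or fallen passed that threshold. The targeted genes were examined first. *Lats1* was at 76.1, 94.3 and 78.4 CPM in L1L2-FF replicates 1 to 3 and at 38.9, 41.2 and 40.5 CPM in libraries labelled L1L2-AKO, a log2 fold change of -1.04 (SE 0.118, adjusted p = 0.00131). *Lats2* went against its label, with 74.9, 85.7 and 68.5 CPM in L1L2-FF and 96.2, 126 and 135 CPM in libraries labelled L1L2-AKO (log2 fold change 0.64, SE 0.156, adjusted p = 0.0278). The counts are per gene and were not split by floxed exon, and the phrase "libraries labelled L1L2-AKO" is therefore used throughout. The *Lats2* call was lost without L1L2-FF replicate 1 or 3 or without L1L2-AKO replicate 2 or 3, where adjusted p was 0.1, 0.0651, 0.104 and 0.0946. By quantitative PCR, the authors reported less *Lats1* and *Lats2* mRNA in L1L2-AKO adipocytes of the same age and depot.

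The fraction held RNA of other cells besides adipocytes. Counts of markers called are to be read beside all genes tested, of which 9.28% were higher and 7.18% lower (median log2 fold change -0.02). Of the macrophage markers 11 of 12 were higher in libraries labelled L1L2-AKO, and their summed level was 272 to 532 CPM in L1L2-FF and 980 to 1091 CPM in libraries labelled L1L2-AKO. The summed level of 10 adipocyte markers was 22587 to 30708 CPM and 24947 to 33261 CPM, and of these *Slc2a4*, *Adipoq* and *Pparg* were lower, with log2 fold changes of -1.81, -1.26 and -0.59. The other 7 did not pass, with log2 fold changes from -0.65 to 0.52, the highest that of *Lpl*. The sum of all 10 overlapped through *Lpl*. Without it, a choice made after seeing the data, the other 9 summed to 14187 to 17219 CPM in L1L2-FF and 10767 to 13072 CPM in libraries labelled L1L2-AKO. Of the 10 Schwann cell markers 4 were lower and 1 was higher, with a median log2 fold change of -1.58 and sums of 890 to 1857 CPM and 792 to 1460 CPM. The marker that rose was *Pmp22*. Without it, again a choice made after seeing the data, the sums were 538 to 1392 CPM and 189 to 455 CPM, with no overlap. Of the 10 neutrophil markers 8 were tested and none passed in edgeR (unadjusted p under 0.05 for 2, 1 call by DESeq2), with sums of 19.1 to 38.1 CPM and 15.7 to 25.2 CPM, and the other two, *Ly6g* and *Mpo*, had fewer than 10 counts in every library. Markers of progenitors and fibroblasts summed to 4233 to 6824 CPM in L1L2-FF and 4905 to 5506 CPM in libraries labelled L1L2-AKO. Endothelial markers summed to 2060 to 2763 CPM and 1227 to 2664 CPM, and red cell markers to 1682 to 3100 CPM and 1768 to 1883 CPM. In each of these lists 1 gene was lower and 0 higher, of 10, 10 and 9 tested. For skeletal muscle 0 of 7 tested passed in edgeR (unadjusted p under 0.05 for 3, 3 calls by DESeq2), with 13 to 22 CPM and 3.55 to 10.9 CPM. In bulk RNA, fewer cells of a type and less RNA per cell cannot be told apart. The part of these cells in the differences described here was not tested.

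Of the 58 members, 51 had enough counts to be tested. Of these, 8 were higher and 9 were lower in libraries labelled L1L2-AKO. Of all genes tested, 16.5% passed the threshold, 9.28% as higher and 7.18% as lower, against 33.3% of the tested members. Of the 8 higher ones, *Gstm3* could be tested only because of its counts in libraries labelled L1L2-AKO, and without it 16 of 50 passed, 7 as higher. Higher members fell to 4 without L1L2-AKO replicate 3, and all genes called higher fell from 1455 to 777, 814 and 844 without L1L2-FF replicate 1, L1L2-AKO replicate 2 and L1L2-AKO replicate 3, those called lower from 1125 to 513, 467 and 530. The L1L2-FF libraries and libraries labelled L1L2-AKO did not overlap for 24 of the tested members, which is 47.1%, beside 36.4% of all genes tested. The median log2 fold change was -0.11 over the tested members and -0.02 over all genes tested, and the median absolute log2 fold change was 0.50 and 0.28. The summed level of all members was 6307, 5450 and 6674 CPM in L1L2-FF and 5465, 5989 and 6835 CPM in libraries labelled L1L2-AKO. The groups overlapped in this sum, while members within it moved in opposite directions: 3 of 5 tested mu class transferases (besides *Gstm3*) and 2 of 6 peroxiredoxins rose, and all 3 microsomal transferases, 3 of 7 theta, omega, zeta and kappa transferases, catalase and SOD1 fell.

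**Figure D1:**
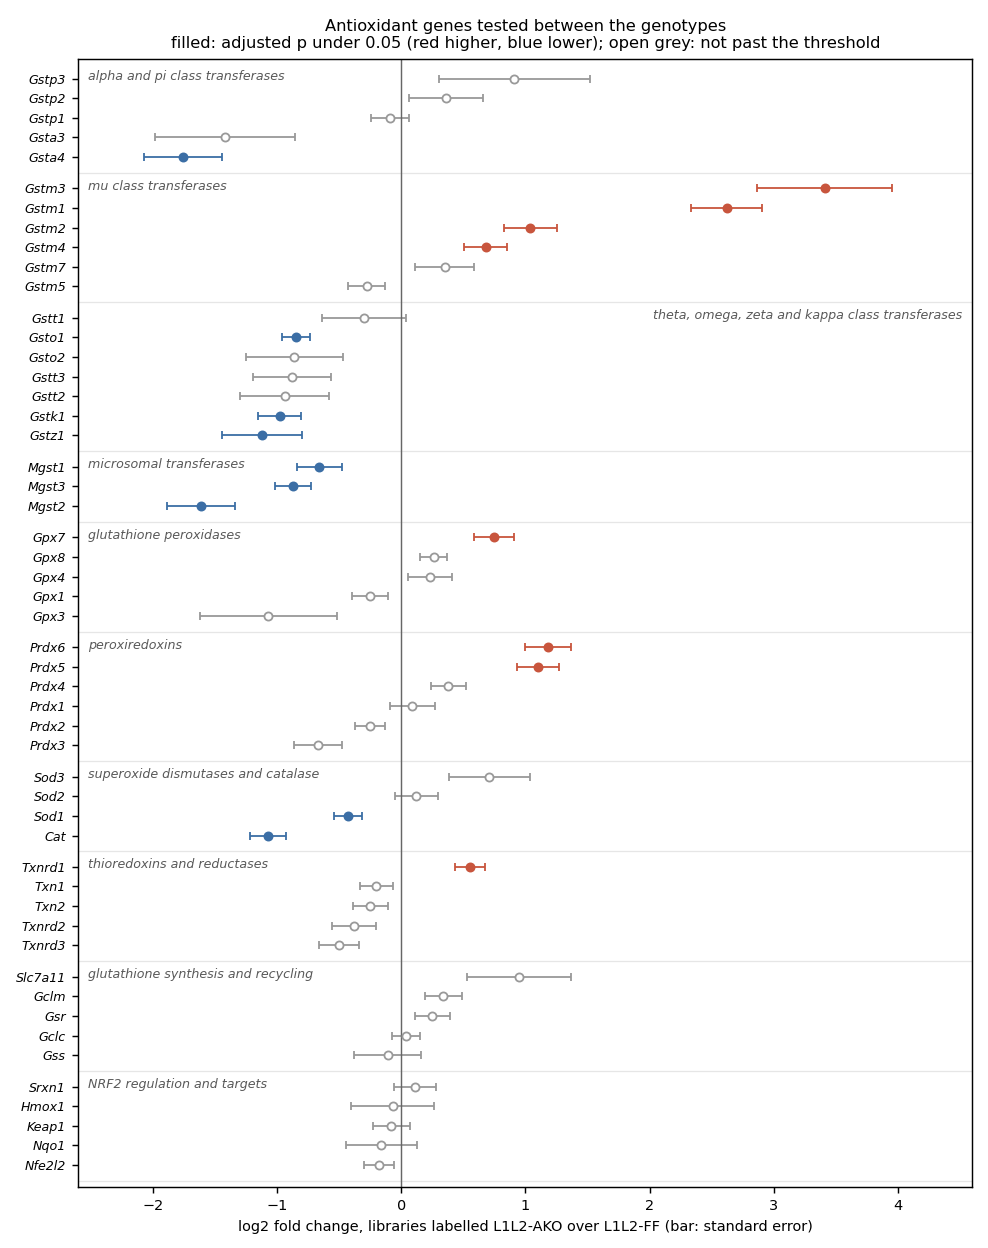
Log2 fold change (x axis) of each of the 51 tested members, ordered within gene classes (y axis), for libraries labelled L1L2-AKO against L1L2-FF; bars are standard errors, filled red points are the 8 higher and filled blue points the 9 lower members, and open grey points did not pass the threshold. The 3 microsomal transferases all lie below 0, and the genes of glutathione synthesis and of NRF2 are all open points near 0 apart from *Slc7a11*.

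The mu class glutathione S-transferases, cytosolic enzymes that conjugate glutathione to aldehydes, epoxides and other electrophiles, had the largest rises. *Gstm1* was at 105, 138 and 87.3 CPM in L1L2-FF and at 437, 730 and 862 CPM in libraries labelled L1L2-AKO, from 2708 to 4453 and from 14494 to 24701 counts. The lowest library labelled L1L2-AKO was thus above the highest L1L2-FF library, and replicate 1 was the lowest in the group labelled L1L2-AKO. The log2 fold change was 2.62 (SE 0.284, adjusted p = 0.00115), a fold of 6.16, and it stayed between 2.42 and 2.86 with any library left out. *Gstm2* was at 73.7, 48.2 and 76.6 CPM in L1L2-FF and at 150, 106 and 151 CPM in libraries labelled L1L2-AKO. Replicate 2 was the lowest of both groups for this gene and the groups did not overlap (log2 fold change 1.04, SE 0.211, adjusted p = 0.0141, and 0.0573 without L1L2-AKO replicate 3).

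*Gstm4* was at 15.5, 14.4 and 13.3 CPM in L1L2-FF and at 21.5, 19.0 and 28.7 CPM in libraries labelled L1L2-AKO (log2 fold change 0.68, SE 0.174, adjusted p = 0.0344). The groups did not overlap, but with a library left out the call held in 1 of 6 fits, that without L1L2-AKO replicate 2 (adjusted p = 0.0429), and adjusted p was 0.0821, 0.0548 and 0.0773 without L1L2-FF replicates 1, 2 and 3 and 0.0572 and 0.0995 without L1L2-AKO replicates 1 and 3. *Gstm3* was a gene of low level, with 4, 3 and 1 counts in L1L2-FF and 22, 39 and 26 counts in libraries labelled L1L2-AKO. It passed the count filter only through libraries labelled L1L2-AKO, and the summed counts of 8 and 87 give a ratio of 10.9 with an exact 95% interval of 5.3 to 26.1 that covers counting error only (adjusted p = 0.00518). Of its 50-base stretches 9.83% also occur in *Gstm1*, so some of its few reads could be those of *Gstm1*. *Gstm5* and *Gstm7* did not pass the threshold (log2 fold changes -0.28 and 0.35), and *Gstm6* had 4 to 6 counts in L1L2-FF and 7 to 17 in libraries labelled L1L2-AKO, too few to be tested.

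These 7 genes lie side by side within 149.1 kb of chromosome 3 (mm10, 107895821 to 108044894), in the order *Gstm5*, *Gstm7*, *Gstm6*, *Gstm3*, *Gstm2*, *Gstm1* and *Gstm4*, and all but *Gstm5* are on the minus strand. *Gstm2*, *Gstm1* and *Gstm4*, which rose, are the 3 at the *Gstm4* end, and *Gstm3*, with its few counts, lies next to them. *Gstm1* itself spans 108012255 to 108017973. Beyond that end, *Ampd2*, *Gnat2* and *Gnai3* did not pass the threshold (log2 fold changes -0.29, -0.17 and 0.23). At the *Gstm5* end, the antisense gene *4933431E20Rik*, which overlaps *Gstm5*, was lower (log2 fold change -1.17, adjusted p = 0.0151), and 9.44% of the 50-base stretches of *Gstm5* lie in its transcripts, where reads could be counted for either gene.

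**Figure D2:**
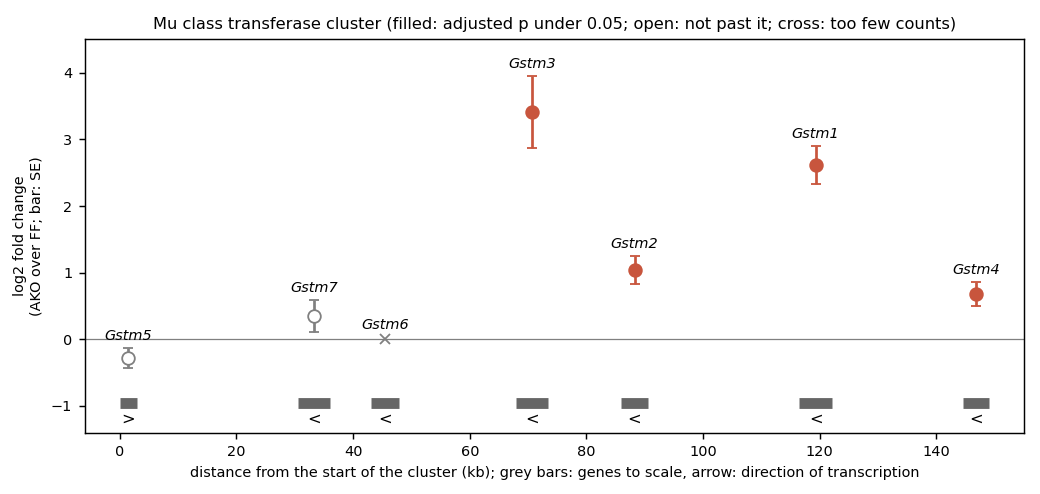
Log2 fold change (y axis, bars are standard errors) of the mu class genes at their distance from the start of the cluster in kb (x axis), with the genes drawn to scale as grey bars. Filled points, *Gstm3*, *Gstm2*, *Gstm1* and *Gstm4*, passed the threshold, open points did not, and the cross marks *Gstm6*, which had too few counts.

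The promoters of these 4 neighbours are shown because each gene passed the threshold as higher, *Gstm3* with the limits given above. Each is the RefSeq window of 300 bases on GRCm38.p6, from 250 bases before to 50 after the start, written 5′ to 3′ on the minus strand, and the one farthest upstream where a gene has several. Capitals mark the core letters bound by TEAD factors, the partners of the Hippo effectors YAP and TAZ, which are GGAATG on either strand (CATTCC when read on the other). The windows are chr3:108017924-108018223 for *Gstm1*, chr3:107986371-107986670 for *Gstm2*, chr3:107969125-107969424 for *Gstm3* and chr3:108044810-108045109 for *Gstm4*.
Gstm1: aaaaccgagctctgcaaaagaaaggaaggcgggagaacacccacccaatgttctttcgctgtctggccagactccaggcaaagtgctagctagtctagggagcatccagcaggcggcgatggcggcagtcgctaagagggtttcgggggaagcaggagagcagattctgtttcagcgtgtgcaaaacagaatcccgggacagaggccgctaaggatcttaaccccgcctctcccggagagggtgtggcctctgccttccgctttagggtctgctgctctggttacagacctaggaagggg
Gstm2: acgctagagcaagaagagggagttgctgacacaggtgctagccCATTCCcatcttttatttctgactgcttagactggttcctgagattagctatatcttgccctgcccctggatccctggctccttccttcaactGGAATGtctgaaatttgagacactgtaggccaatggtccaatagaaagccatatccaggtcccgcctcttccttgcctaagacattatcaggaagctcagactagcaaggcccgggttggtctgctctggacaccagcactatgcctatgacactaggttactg
Gstm3: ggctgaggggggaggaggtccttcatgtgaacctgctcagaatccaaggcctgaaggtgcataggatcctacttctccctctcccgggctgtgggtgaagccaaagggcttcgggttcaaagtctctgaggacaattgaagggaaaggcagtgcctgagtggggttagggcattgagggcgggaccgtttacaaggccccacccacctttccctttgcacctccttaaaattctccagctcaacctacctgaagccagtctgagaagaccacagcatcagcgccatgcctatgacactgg
Gstm4: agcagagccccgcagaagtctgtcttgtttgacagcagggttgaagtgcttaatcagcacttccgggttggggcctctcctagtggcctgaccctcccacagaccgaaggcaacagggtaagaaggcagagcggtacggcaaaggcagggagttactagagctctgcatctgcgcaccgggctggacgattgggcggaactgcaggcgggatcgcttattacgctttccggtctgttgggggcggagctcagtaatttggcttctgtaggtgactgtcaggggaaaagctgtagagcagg

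Only the *Gstm2* window of these 4 holds the TEAD letters, at 207 and 114 bases before the start and on opposite strands. Among the 51 members with a window, 6 hold them (11.8%), beside 16.6% of the 27025 genes with a window. The other 5 are *Gpx8*, *Gstm6*, *Gstm7*, *Txn2* and *Txnrd2*, none of which passed the threshold. A match of letters is a description of the sequence and not of binding.

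Since the genes of this class differ in length, their shares were also computed per kb of exon. Of the summed CPM per kb of the soluble transferases, *Gstm1* made up 17.9%, 27.2% and 14.5% in L1L2-FF and 52.0%, 70.5% and 69.2% in libraries labelled L1L2-AKO. *Gstz1* made up 30.8%, 21.5% and 36.7% in L1L2-FF and 12.6%, 4.96% and 6.22% in libraries labelled L1L2-AKO. In every L1L2-FF library but replicate 2 the share of *Gstz1* was thus above that of *Gstm1*, and in every library labelled L1L2-AKO it was below. Among all members ranked by mean CPM per kb, *Gstm1* went from place 11 (74.6 CPM per kb) in L1L2-FF to place 1 (459 CPM per kb) in libraries labelled L1L2-AKO. The summed CPM of the mu class was 194 to 216 in L1L2-FF and 623 to 1059 in libraries labelled L1L2-AKO.

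**Figure D3:**
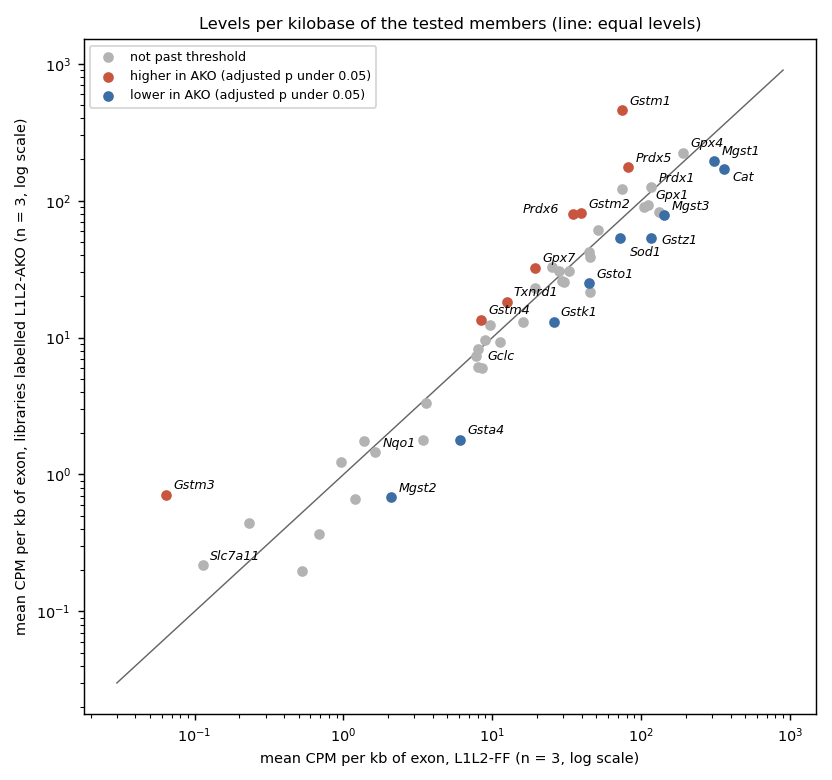
Mean CPM per kb of exon of each tested member in L1L2-FF (x axis) and in libraries labelled L1L2-AKO (y axis), both on log scales, with 3 libraries a group and a line of equal levels; red and blue points are the members past the threshold. *Gstm1* lies farthest above the line among abundant members, at 74.6 and 459 CPM per kb, and *Cat* lies below it at 358 and 171.

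The other soluble transferases that passed the threshold all fell. *Gsta4*, an alpha class enzyme known for clearing 4-hydroxynonenal, an aldehyde formed by lipid peroxidation, was at 8.49, 5.50 and 9.12 CPM in L1L2-FF and at 1.66, 3.20 and 1.96 CPM in libraries labelled L1L2-AKO (log2 fold change -1.76, SE 0.313, adjusted p = 0.0081). The groups did not overlap, and L1L2-FF was 3.39-fold higher. The most abundant gene of the alpha and pi classes, *Gstp1*, was at 56.0, 39.5 and 55.9 CPM and at 50.4, 46.8 and 45.5 CPM, with a log2 fold change of -0.09 (SE 0.152) that did not pass. Part of its reads could belong to *Gstp2*, with which it shares 33.7% of its 50-base stretches. *Gsta3*, *Gstp2* and *Gstp3* did not pass either (log2 fold changes -1.42, 0.36 and 0.91, at 2.28 CPM or less in each group), and *Gsta1* and *Gsta2* had no counts in any library.

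*Gsto1*, an omega class enzyme that acts more as a thiol reductase than as a transferase, was at 90.4, 84.9 and 97.1 CPM in L1L2-FF and at 54.8, 45.7 and 50.8 CPM in libraries labelled L1L2-AKO (log2 fold change -0.85, SE 0.114, adjusted p = 0.00256). *Gstk1*, the kappa class enzyme of mitochondria and peroxisomes, was at 41.8, 29.3 and 42.6 CPM and at 18.3, 17.8 and 21.5 CPM (log2 fold change -0.98, SE 0.170, adjusted p = 0.00717). In neither gene did the groups overlap, and both calls held with any library left out. *Gstz1*, which isomerizes maleylacetoacetate in the breakdown of tyrosine, was at 622, 377 and 765 CPM and at 365, 178 and 268 CPM (log2 fold change -1.12, SE 0.320, adjusted p = 0.0489). Its lowest L1L2-FF library, replicate 2, lay just above its highest library labelled L1L2-AKO, replicate 1. The call held without either of these libraries and was lost without L1L2-FF replicate 1 or 3 or L1L2-AKO replicate 2 or 3, with adjusted p of 0.139, 0.122, 0.147 and 0.144. *Gsto2*, *Gstt1*, *Gstt2* and *Gstt3* did not pass (log2 fold changes -0.86, -0.30, -0.94 and -0.88), and *Gstt4* had 2 to 8 counts in L1L2-FF and none in libraries labelled L1L2-AKO.

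All 3 microsomal transferases, membrane enzymes that conjugate glutathione to lipid-soluble compounds and reduce lipid hydroperoxides, fell. *Mgst3* was at 164, 163 and 145 CPM in L1L2-FF and at 84.8, 72.5 and 100 CPM in libraries labelled L1L2-AKO (log2 fold change -0.87, SE 0.143, adjusted p = 0.00574). *Mgst2*, which can also make leukotriene C4, was at 8.14, 5.35 and 9.77 CPM and at 2.71, 2.85 and 2.02 CPM (log2 fold change -1.61, SE 0.273, adjusted p = 0.00659). These calls held with any library left out. The most abundant of the 3, *Mgst1*, was at 610, 614 and 647 CPM in L1L2-FF and at 306, 392 and 483 CPM in libraries labelled L1L2-AKO (log2 fold change -0.66, SE 0.180, adjusted p = 0.0416). Its libraries labelled L1L2-AKO were spread more widely than its L1L2-FF libraries, and with a library left out the call held in 1 of 6 fits, that without L1L2-AKO replicate 3 (adjusted p = 0.0305), with adjusted p of 0.106, 0.054 and 0.0747 without L1L2-FF replicates 1, 2 and 3 and 0.0922 and 0.133 without L1L2-AKO replicates 1 and 2. The summed level of the 3 genes was 782 to 802 CPM in L1L2-FF and 393 to 586 CPM in libraries labelled L1L2-AKO.

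Among the enzymes that remove hydrogen peroxide and superoxide, catalase fell most. *Cat* (chromosome 2, 103453849 to 103485160, minus strand) was at 1031, 834 and 940 CPM in L1L2-FF and at 426, 434 and 478 CPM in libraries labelled L1L2-AKO. Libraries labelled L1L2-AKO lay close together, well below the lowest L1L2-FF library. The log2 fold change was -1.07 (SE 0.145, adjusted p = 0.00268), L1L2-FF being 2.1-fold higher, and it stayed between -1.14 and -1.0 with any library left out. In mean CPM per kb, *Cat* was the highest of all members in L1L2-FF (358) and the fifth in libraries labelled L1L2-AKO (171). Its RefSeq promoter window holds neither the TEAD letters nor those of NRF2 given below.

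*Sod1*, the copper and zinc superoxide dismutase of the cytosol, was at 284, 289 and 293 CPM in L1L2-FF and at 215, 225 and 201 CPM in libraries labelled L1L2-AKO (log2 fold change -0.43, SE 0.112, adjusted p = 0.0348). The groups did not overlap, but with a library left out the call held in 1 of 6 fits, that without L1L2-FF replicate 2 (adjusted p = 0.0468), with adjusted p of 0.113 and 0.0599 without L1L2-FF replicates 1 and 3 and 0.0841, 0.0963 and 0.128 without L1L2-AKO replicates 1, 2 and 3. The gene of the mitochondrial enzyme, *Sod2*, did not pass, with 260, 249 and 339 CPM and 256, 331 and 337 CPM (log2 fold change 0.12, SE 0.172). *Sod3*, the secreted enzyme of the extracellular matrix, was at 273, 266 and 295 CPM in L1L2-FF and at 221, 539 and 606 CPM in libraries labelled L1L2-AKO. Replicate 1 of those labelled L1L2-AKO lay below all of L1L2-FF and the other two lay far above. *Sod3* did not pass (log2 fold change 0.71, SE 0.327, adjusted p = 0.186), and without L1L2-AKO replicate 1 the log2 fold change was 1.04 with an adjusted p of 0.00468, the lowest of a range up to 0.469 over the alternatives.

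Of the peroxiredoxins, thiol enzymes that reduce peroxides, only *Prdx5* and *Prdx6* passed the threshold. *Prdx5*, an atypical peroxiredoxin of mitochondria, peroxisomes and cytosol, was at 175, 159 and 190 CPM in L1L2-FF and at 310, 360 and 456 CPM in libraries labelled L1L2-AKO (log2 fold change 1.10, SE 0.168, adjusted p = 0.00424). *Prdx6*, which reduces phospholipid hydroperoxides with glutathione in place of thioredoxin, was at 152, 154 and 200 CPM and at 412, 297 and 434 CPM (log2 fold change 1.18, SE 0.187, adjusted p = 0.00503). In both genes the groups were far apart and the call held with any library left out. *Prdx5* overlaps *Trmt112* on the opposite strand, and 15.5% of its 50-base stretches lie in transcripts of that gene. Of the summed CPM per kb of the peroxiredoxins, *Prdx5* and *Prdx6* together made up 25.4% to 30.4% in L1L2-FF and 44.2% to 52.6% in libraries labelled L1L2-AKO.

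The 4 typical peroxiredoxins did not pass. *Prdx3*, the mitochondrial one, was at 194, 144 and 243 CPM in L1L2-FF and at 136, 117 and 113 CPM in libraries labelled L1L2-AKO, without overlap (log2 fold change -0.67, SE 0.192, adjusted p = 0.0501). That value lies at the threshold, and it was 0.00814 without L1L2-FF replicate 2 and between 0.00814 and 0.164 over all alternatives. For *Prdx1* and *Prdx2* of the cytosol and *Prdx4* of the endoplasmic reticulum the log2 fold changes were 0.09, -0.25 and 0.38. The summed level of the 6 genes was 883 to 1267 CPM in L1L2-FF and 1329 to 1571 CPM in libraries labelled L1L2-AKO, without overlap.

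In the thioredoxin chain, *Txnrd1*, the cytosolic selenoprotein that recharges thioredoxin with NADPH, was at 84.2, 85.5 and 96.7 CPM in L1L2-FF and at 115, 134 and 140 CPM in libraries labelled L1L2-AKO (log2 fold change 0.55, SE 0.121, adjusted p = 0.0195). The groups did not overlap. The call was lost without L1L2-FF replicate 1 (adjusted p = 0.0914), L1L2-AKO replicate 2 (0.0835) or L1L2-AKO replicate 3 (0.0729). Cytosolic thioredoxin itself, *Txn1*, was at 120, 90.9 and 117 CPM and at 93.4, 97.9 and 94.0 CPM, overlapping between the groups (log2 fold change -0.20, SE 0.130). The mitochondrial pair *Txn2* and *Txnrd2* had log2 fold changes of -0.25 and -0.38 and *Txnrd3* one of -0.50 (adjusted p = 0.0689), and none of these passed.

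Of the glutathione peroxidases, *Gpx7*, a peroxidase of the endoplasmic reticulum that takes part in oxidative protein folding, was the only one to pass. It was at 28.5, 21.1 and 25.3 CPM in L1L2-FF and at 35.8, 40.6 and 49.4 CPM in libraries labelled L1L2-AKO (log2 fold change 0.75, SE 0.162, adjusted p = 0.0181), and adjusted p was 0.061 without L1L2-AKO replicate 2 and 0.0651 with L1L2-AKO replicate 3 left out. *Gpx4*, the selenoenzyme that reduces lipid hydroperoxides in membranes and guards against ferroptosis, was the most abundant, with 350, 257 and 381 CPM and 366, 357 and 438 CPM. The groups overlapped (log2 fold change 0.23, SE 0.177), and 34.7% of its 50-base stretches also occur in a pseudogene that is not in the count table. *Gpx1* of the cytosol and *Gpx8* of the endoplasmic reticulum had log2 fold changes of -0.25 and 0.26. *Gpx3*, the secreted plasma enzyme, varied widely within each group, with 37.1, 126 and 82.0 CPM in L1L2-FF and 13.5, 53.2 and 49.9 CPM in libraries labelled L1L2-AKO (log2 fold change -1.07, SE 0.551, adjusted p = 0.234). *Gpx5* and *Gpx6* had no counts, and *Gpx2* had 4 counts in 1 L1L2-FF library and none elsewhere.

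**Figure D4:**
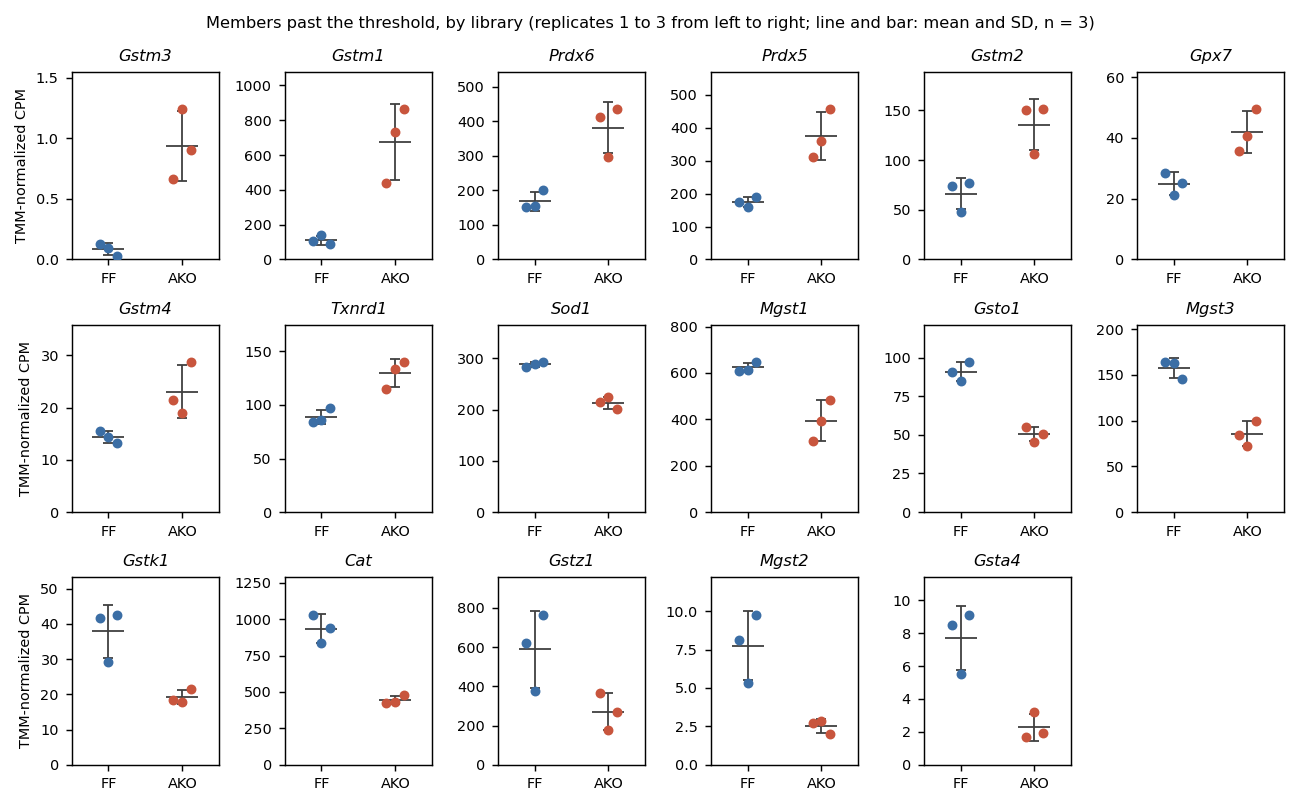
TMM-normalized CPM (y axis, from 0) of the 17 members past the threshold in each library, with L1L2-FF in blue and libraries labelled L1L2-AKO in red and replicates 1 to 3 from left to right; lines and bars are the mean and SD of 3 libraries. The panels were picked by the threshold, and in all 17 the red and blue points do not overlap. Over all genes tested, the groups did not overlap in 36.4%. *Gstz1* comes closest to overlapping, at 377 and 365 CPM.

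No gene of glutathione synthesis and recycling passed the threshold: of the 5, edgeR's quasi-likelihood test gave an unadjusted p under 0.05 for 1, and DESeq2 called 0. *Gclc*, the catalytic subunit of the rate-limiting ligase, was at 30.6, 32.6 and 27.4 CPM in L1L2-FF and at 30.5, 30.0 and 32.6 CPM in libraries labelled L1L2-AKO (log2 fold change 0.04, SE 0.113). Its regulatory subunit *Gclm* was at 61.3, 50.8 and 70.2 CPM and at 68.3, 77.4 and 85.7 CPM (log2 fold change 0.34, SE 0.148, adjusted p = 0.161). Both subunits thus overlapped between the groups. *Gsr*, glutathione reductase, was at 53.2, 49.4 and 57.0 CPM and at 51.5, 69.3 and 68.4 CPM (log2 fold change 0.25, SE 0.140), and *Gss*, glutathione synthetase, had a log2 fold change of -0.11. *Slc7a11*, the cystine importer, was low in all libraries, at 1.5, 0.835 and 2.38 CPM and at 3.92, 2.00 and 3.18 CPM (log2 fold change 0.95, SE 0.420, adjusted p = 0.17).

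None of the 5 NRF2 regulators and targets passed either, with an unadjusted p under 0.05 for 0 of them in edgeR and 0 calls by DESeq2. *Nfe2l2* was at 123, 97.7 and 112 CPM in L1L2-FF and at 97.0, 103 and 93.4 CPM in libraries labelled L1L2-AKO (log2 fold change -0.18, SE 0.121). *Keap1* was at 34.3, 32.1 and 43.0 CPM and at 39.2, 31.8 and 32.4 CPM (log2 fold change -0.08, SE 0.149). The quinone reductase *Nqo1*, often used as a readout of NRF2, was low, at 2.75, 1.76 and 3.09 CPM and at 2.17, 2.06 and 2.55 CPM (log2 fold change -0.16, SE 0.283). All of these overlapped between the groups. *Hmox1*, heme oxygenase, was at 129, 52.0 and 53.8 CPM and at 85.9, 68.0 and 68.8 CPM, with L1L2-FF replicate 1 above all other libraries (log2 fold change -0.07, SE 0.334). *Srxn1*, sulfiredoxin, which repairs overoxidized peroxiredoxins, was at 23.5, 20.1 and 31.4 CPM and at 28.5, 25.7 and 27.0 CPM (log2 fold change 0.11, SE 0.171).

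**Figure D5:**
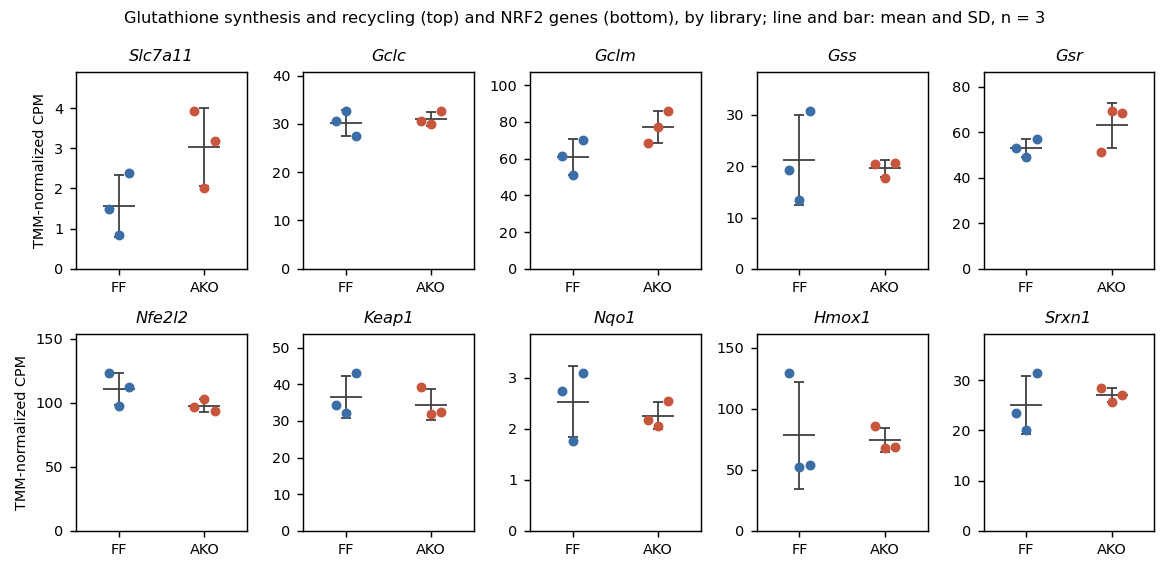
TMM-normalized CPM (y axis, from 0) in each library of the 5 genes of glutathione synthesis and recycling in the top row and the 5 NRF2 genes in the bottom row, with L1L2-FF in blue and libraries labelled L1L2-AKO in red; lines and bars are the mean and SD of 3 libraries. The groups overlap in all 10 panels, and 1 L1L2-FF library of *Hmox1* stands at 129 CPM.

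The letters of the antioxidant response element to which NRF2 binds, TGACNNNGC on either strand, were searched in the same RefSeq windows. They occur in 10 of the 51 members with a window (19.6%) and in 14.0% of the 27025 genes. Of the 17 members past the threshold, 15 have a window (*Gsta4* and *Prdx6* do not), and the letters occur in windows of *Txnrd1*, which rose, and of *Mgst1* and *Sod1*, which fell. The windows of *Txnrd1* (chr10:82858956-82859255) and *Mgst1* (chr6:138140277-138140576), both on the plus strand of GRCm38.p6, are shown as members with the letters that went in opposite directions, with the element in capitals as read from the other strand, 92 and 56 bases before the start. These letters can hold those of AP-1 sites (TGANTCA), which 11.8% of the members and 8.97% of all genes have in their windows.
Txnrd1: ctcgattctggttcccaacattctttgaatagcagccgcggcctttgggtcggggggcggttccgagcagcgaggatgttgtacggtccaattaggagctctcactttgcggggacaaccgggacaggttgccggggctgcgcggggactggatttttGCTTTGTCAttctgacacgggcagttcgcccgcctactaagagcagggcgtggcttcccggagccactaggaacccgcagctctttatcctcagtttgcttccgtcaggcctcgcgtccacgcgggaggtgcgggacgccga
Mgst1: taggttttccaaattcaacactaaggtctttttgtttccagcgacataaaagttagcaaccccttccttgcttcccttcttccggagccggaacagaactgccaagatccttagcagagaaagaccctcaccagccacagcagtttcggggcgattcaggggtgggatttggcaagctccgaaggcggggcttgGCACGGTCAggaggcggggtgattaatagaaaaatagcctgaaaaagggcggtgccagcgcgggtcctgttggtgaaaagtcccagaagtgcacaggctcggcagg

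The other 7 members with these letters, *Gclm*, *Gsta3*, *Gstm5*, *Gstm7*, *Nfe2l2*, *Prdx1* and *Srxn1*, did not pass the threshold. The windows printed for the 4 mu class genes that rose do not hold them, and neither do those of *Prdx5* and of *Nqo1*. Sequence outside these windows was not searched, so letters farther away would have been missed.

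Genes around these members were examined in lists of the wider pathways, in which the share called is to be read beside the 16.5% of all genes tested and the median log2 fold change beside the -0.02 of all genes. Of 24 further genes of the glutathione cycle and transport, 3 were higher and 3 lower, with a median log2 fold change of -0.21. *Ggt5* and *Dpep1*, ectoenzymes that break down glutathione conjugates and leukotrienes outside the cell, were both higher. *Ggt5* was at 12.6, 15.0 and 12.3 CPM in L1L2-FF and at 34.7, 73.1 and 87.9 CPM in libraries labelled L1L2-AKO (log2 fold change 2.29, SE 0.314, adjusted p = 0.00273). *Dpep1* was at 15.1, 20.7 and 11.2 CPM and at 28.8, 52.5 and 55.7 CPM (log2 fold change 1.54, SE 0.297, adjusted p = 0.0115). In both genes, as in *Gstm1*, L1L2-AKO replicate 1 was the lowest of its group and still above L1L2-FF. *Abcc1*, an exporter of glutathione conjugates, was lower (log2 fold change -0.89, adjusted p = 0.0155), as was the mitochondrial glutaredoxin *Glrx5* (-0.56, adjusted p = 0.0249), and the amino acid carrier *Slc1a4* was higher (0.70, adjusted p = 0.0457).

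Of 14 further partners of thioredoxin and enzymes of methionine repair, 2 were higher and 2 lower (median 0.12). The methionine sulfoxide reductases *Msra* and *Msrb2*, which use thioredoxin to repair oxidized methionine, were the lower ones. *Msra* was at 57.2, 31.7 and 54.4 CPM in L1L2-FF and at 20.6, 20.8 and 24.2 CPM in libraries labelled L1L2-AKO (log2 fold change -1.13, SE 0.219, adjusted p = 0.0117), and *Msrb2* had a log2 fold change of -1.18 (SE 0.209, adjusted p = 0.00792). *Txndc17* and *Sesn1* were higher (log2 fold changes 0.57 and 0.54). Of 22 further NRF2 regulators and targets, 5 were higher and 2 lower (median 0.11). *Ephx1*, microsomal epoxide hydrolase, was at 10, 18.6 and 8.38 CPM and at 39.2, 37.8 and 39.9 CPM (log2 fold change 1.66, SE 0.275, adjusted p = 0.00606), *Mafk* and *Blvra* were higher (0.87 and 0.86), and *Cbr1* and *Aox1* were lower (-0.70 and -0.69).

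None of the 12 genes of NADPH supply passed, with an unadjusted p under 0.05 for 3 of them in edgeR's test and 3 calls by DESeq2 (median -0.12). Genes that make oxidants were mostly higher, 7 of 11 tested with none lower and a median log2 fold change of 1.21. The phagocyte oxidase genes *Cybb*, *Ncf1* and *Rac2* had log2 fold changes of 1.35, 1.21 and 1.37, beside the macrophage marker *Adgre1* at 14.9, 21.1 and 11.8 CPM in L1L2-FF and 56.6, 47.6 and 45.9 CPM in libraries labelled L1L2-AKO (log2 fold change 1.65). The part of macrophage RNA in this list was not tested. *Xdh*, xanthine oxidoreductase, was at 76.7, 98.5 and 90.9 CPM and at 127, 236 and 267 CPM (log2 fold change 1.24, SE 0.261, adjusted p = 0.0158). With any library left out, the calls of *Ggt5*, *Msrb2*, *Ephx1*, *Cbr1*, *Cybb* and *Rac2* held, those of *Dpep1* and *Msra* held in 5 of the 6 such fits, and those of the other genes named from these wider lists in 1 to 3.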

How the data were processed

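Polyadenylated RNA of 6 libraries, assigned to genotype and replicate by the submitters' labels, was read from both ends (BGISEQ-500). Alignment by the authors used HISAT2 2.1.0 and mm10, followed by StringTie 1.3.5, and they deposited raw counts for each gene symbol, with no normalization. The annotation, counting program and strand setting are not given in the sources used here.

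Counts were tested in R 4.3.3 with edgeR 4.0.16: filterByExpr (minimum count 10, minimum total count 15) kept 15674 genes and left out 21710, followed by TMM factors, the two-sided quasi-likelihood test and Benjamini-Hochberg adjustment at 0.05. The standard error is the absolute log2 fold change over the square root of F. Exon lengths, each the union of all annotated exons of a gene, and positions came from GENCODE M21. The test was checked beforehand on simulated counts. Alternatives were DESeq2 size factors, library size alone, upper-quartile factors, no count filter, DESeq2 1.42.0, a replicate block and each library left out.

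The members and lists were chosen with earlier results of these data known. Named with every library's value were the members past the threshold, the most abundant per kb of each class, and *Nfe2l2*, *Keap1*, *Gclc*, *Gclm*, *Slc7a11*, *Nqo1*, *Hmox1* and *Srxn1*; of each wider or marker list, at most 5 genes past the threshold with the largest change and a mean log2 CPM of 3 or more. *Lats1* and *Lats2* served as a check. Some of the genes this rule names are left out of the text. *Prdx3*, *Sod2*, *Lpl*, *Sod3*, *Gpx3*, *Ly6g*, *Mpo* and the neighbours of the mu cluster were added after their values were seen. Within each genotype, every pair of libraries differed beyond sampling noise. With 3 libraries a group, the p-values measure the spread between these pools.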

Additional observations from a re-analysis of the deposited data

How the results depend on the processing

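All 17 members past the threshold kept their direction under the 12 alternatives, and 10 passed in each of them: *Gstm1*, *Gstm3*, *Prdx5* and *Prdx6* as higher and *Gsto1*, *Gstk1*, *Gsta4*, *Mgst2*, *Mgst3* and *Cat* as lower. No other scaling moved the median of all genes by more than 0.035 on the log2 scale. With a library left out, members higher ranged from 4 (without L1L2-AKO replicate 3) to 8 and lower from 6 to 12, all tested genes from 777 to 1552 and from 467 to 1293, wider genes from 9 to 18 and from 4 to 18, and marker genes from 6 to 13 and from 6 to 10, beside 8, 9, 1455, 1125, 19, 10, 12 and 10 with all libraries. Lower marker genes numbered 17 with no count filter, 21 with DESeq2 and 20 with the replicate block; the cause was not tested. With the replicate block, *Gstm4* and *Sod1* lost their calls and *Gpx3* and *Gsta3* gained one, leaving 7 higher and 10 lower members. The replicate numbers were not taken as pairs, since deviations from the genotype means correlated at 0.188, 0.255 and -0.0544 between same-numbered libraries, and not every library correlated best with its own number. Among alternatives that kept all libraries, *Gstz1* lost its call with DESeq2 size factors and *Sod1* with no count filter. At this depth, 7 members had too few counts to be tested.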

Other observations

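Of 19 further genes of selenoproteins and selenium handling, 2 were higher and 3 lower in libraries labelled L1L2-AKO. That is 26.3% of the list, beside 16.5% of all genes tested. The 3 lower ones, *Sephs2*, *Pstk* and *Sepsecs*, all take part in making selenocysteine on its tRNA. *Sephs2*, which makes the selenium donor, was at 50.4, 52.4 and 57.5 CPM in L1L2-FF and at 33.2, 35.4 and 33.0 CPM in libraries labelled L1L2-AKO (edgeR log2 fold change -0.66, SE 0.105, adjusted p = 0.0051). *Pstk* and *Sepsecs* had log2 fold changes of -0.60 and -0.47 (adjusted p = 0.0274 and 0.0197), and in all 3 genes the groups did not overlap. The groups did not overlap in 36.8% of the list, beside 36.4% of all genes tested. *Sephs1*, *Eefsec*, *Scly* and *Secisbp2* of the same list did not pass (log2 fold changes 0.11, 0.09, 0.05 and 0.26). The *Sephs2* call held with any library left out, that of *Sepsecs* in 3 of the 6 such fits and that of *Pstk* in 1. The higher ones were *Selenoi*, an enzyme of phosphatidylethanolamine synthesis (47.7, 57.9 and 54.1 CPM and 95.7, 96.2 and 139 CPM, log2 fold change 1.05, adjusted p = 0.00561), and *Selenon* (log2 fold change 0.47, adjusted p = 0.02). Of the selenoproteins among the members, *Txnrd1* rose and *Gpx1*, *Gpx3*, *Gpx4*, *Txnrd2* and *Txnrd3* did not pass the threshold.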
